A study of Mus musculus with 12 samples.

Results

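Chemokines are small secreted proteins that guide leukocytes along concentration gradients, and their receptors are G protein-coupled receptors on the migrating cells. CXC chemokines that carry the ELR motif act mainly on neutrophils, the CC chemokines of the Ccl2 group on monocytes, and other members place lymphocytes in mucosa and lymphoid follicles. In the colon, epithelium, stroma and resident leukocytes all make chemokines, and dextran sulfate sodium (DSS) in drinking water is a standard way to injure the epithelium and draw leukocytes in. The members described here are the genes of the deposited expression table whose mouse symbols begin with Ccl, Cxcl, Ccr or Cxcr followed by a number. They came to 52 of the 54532 genes, 36 ligands and 16 receptors.

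The samples were colon RNA from wild-type C57BL/6J mice in 4 groups of 3 libraries. The groups were CD, a diet that the labels do not spell out, HFD, a high-fat diet, and each of these diets with 2% DSS (CD+DSS and HFD+DSS). The sources used here give no age or sex of the mice, no length of the diets and no duration of DSS. The study's title places the work on high-fat diet and colitis. Nothing in the labels says that the 3 libraries of a group came from separate animals, so the p-values measure the spread between these samples, which may be technical.

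Levels are in FPKM, fragments per kilobase of gene length scaled by library size, so that genes of different length can be set side by side. Fragments over genes, recovered from the FPKM steps, ranged from 14655100 to 17927390 per library. Colon markers (Car1, Slc26a3, Aqp8, Muc2 and Ang4) summed to 2546 to 15073 FPKM, and all 5 were above 0 in every library. Car1 made up 14081 FPKM of the highest sum, in replicate 3 of HFD. Single markers differed widely between libraries, from 19.3 to 164 FPKM for Slc26a3 and from 2.88 to 3194 for Ang4. Hoxa13, Hoxb13 and Hoxd13, posterior Hox genes that mark the distal gut, summed to 38.3 to 111 FPKM in CD, 7.04 to 34.7 in HFD, 1.62 to 40.5 in CD+DSS and 46.6 to 92.8 in HFD+DSS. These sums differed widely within groups, and they also did not overlap between CD and HFD or between CD+DSS and HFD+DSS. In bulk tissue, fewer cells of a type and less RNA per cell cannot be told apart.

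Of the 52 members, 15 reached FPKM 1 in all 12 libraries, 19 in 3 to 11 libraries, 2 in 1 or 2 libraries and 16 in none. The 15 were the ligands Ccl5, Ccl6, Ccl8, Ccl9, Ccl11, Ccl28, Cxcl9, Cxcl10, Cxcl12, Cxcl13, Cxcl14 and Cxcl16 and the receptors Ccr1, Cxcr4 and Cxcr6. The 34 members that reached FPKM 1 in at least 3 libraries, 24 ligands and 10 receptors, were tested. Of these, Cxcl1, Cxcl2 and Cxcl5 reached FPKM 1 only in libraries with DSS, so they entered the test through the group in which they were high. Ccl17 reached FPKM 1 in 2 libraries and Cxcl17 in 1. The 16 members below FPKM 1 throughout were the ligands Ccl1, Ccl19, Ccl21a, Ccl21b, Ccl24, Ccl26, Ccl27b, Cxcl3, Cxcl11 and Cxcl15 and the receptors Ccr3, Ccr4, Ccr8, Ccr9, Cxcr1 and Cxcr2. Ccl26 was at 0 in all 12 libraries. Ccl19 had 3 fragments over all libraries, Ccl21a 6 and Ccl21b 1. The Ccl21 genes, the Ccl19 locus and the Ccl27 genes have near-identical copies, so their values are uncertain. Cxcl11, annotated as a polymorphic pseudogene, stayed between 0.134 and 0.882 FPKM.

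**Figure D1:**
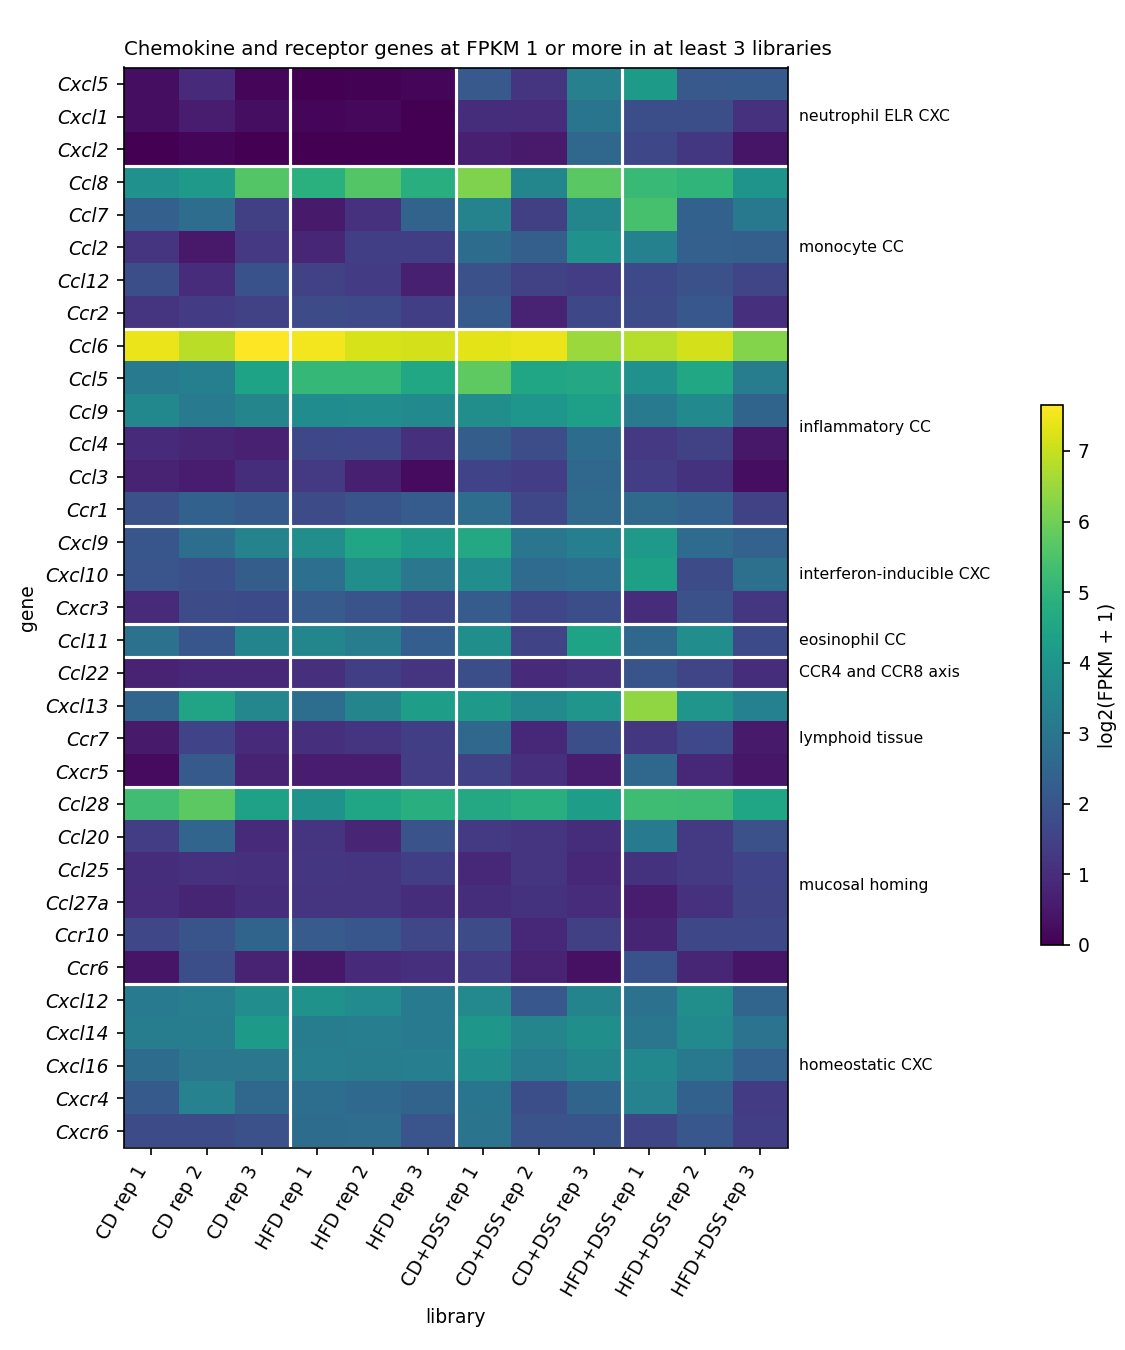
Heat map of log2(FPKM + 1) for tested members (rows) in the 12 libraries (columns, 3 per group). Ccl6 is the brightest row in every library, and Cxcl1, Cxcl2 and Cxcl5 are dark in the 6 libraries without DSS.

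The highest level belonged to Ccl6, a mouse CC chemokine of myeloid cells, at 73.4 to 200.1 FPKM with a median of 143. Ccl8, listed here with the monocyte CC ligands, came next by median at 29.6 FPKM (10.3 to 71.6). It was followed by Ccl28, an epithelial ligand of CCR10 and CCR3, at 25.1 (13.8 to 51.5) and Ccl5 at 22.1 (7.93 to 53.0). The ranges of these 3 overlapped over the 12 libraries, while the lowest Ccl6 value was above the highest value of each. Receptor levels were lower. Cxcr4, the receptor of Cxcl12, had a median of 4.71 FPKM, Ccr1 of 3.54 and Cxcr6, the receptor of Cxcl16, of 2.93.

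The neutrophil-attracting CXC ligands lie close together on chromosome 5 (mm10), Cxcl5 at chr5:90759360-90761624, Cxcl3 at chr5:90786103-90789600, Cxcl15 at chr5:90794534-90803067, Cxcl1 at chr5:90891241-90893115 and Cxcl2 at chr5:90903871-90905938, all on the plus strand. The stretches just before the RefSeq start sites of Cxcl1 and Cxcl2 are shown because of their p-values with DSS averaged over diets, given below. Cxcl1 passed that test. Cxcl2 had 1 of the 5 smallest p-values of the members there but did not pass. Ccl2, Cxcl5 and Ccr10 had no entry among the RefSeq promoters used, so they could not be examined. Cxcl3 and Cxcl15, neighbours chosen after their values were seen, are shown for comparison. Each is 120 bases of the plus strand of GRCm38.p6, taken from RefSeq, at chr5:90785981-90786100 for Cxcl3, chr5:90794414-90794533 for Cxcl15, chr5:90891125-90891244 for Cxcl1 and chr5:90903779-90903898 for Cxcl2. Capitals mark matches to the NF-kappaB consensus on either strand.
Cxcl3: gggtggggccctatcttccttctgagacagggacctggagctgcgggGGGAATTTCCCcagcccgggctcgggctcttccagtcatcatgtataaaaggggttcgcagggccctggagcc
Cxcl15: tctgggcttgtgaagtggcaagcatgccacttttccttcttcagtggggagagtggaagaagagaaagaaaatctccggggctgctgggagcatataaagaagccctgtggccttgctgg
Cxcl1: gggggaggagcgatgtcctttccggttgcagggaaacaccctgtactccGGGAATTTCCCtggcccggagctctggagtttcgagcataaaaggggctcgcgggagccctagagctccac
Cxcl2: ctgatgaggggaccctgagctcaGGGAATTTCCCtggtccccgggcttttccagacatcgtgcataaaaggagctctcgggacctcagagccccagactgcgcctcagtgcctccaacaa
In Cxcl3, Cxcl1 and Cxcl2 the consensus matched on both strands at overlapping positions, beginning 73, 71 and 97 bases before the start site, and no match lay in the Cxcl15 window. In windows from 250 bases before to 50 bases after the start site, the consensus was found in 4.51% of 32851 RefSeq promoters and in 9 of the 44 windows of the 37 members with an entry. The 9 genes were Ccl9, Ccl20, Ccl27a, Ccr3, Ccr6, Cxcl1, Cxcl2, Cxcl3 and Cxcl10. TATAAA, searched on both strands, was found in 13.62% of all windows and in those of 10 members, Cxcl3 and Cxcl15 among them. A match is a description of the letters and not a measurement of binding.

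With DSS, averaged over the 2 diets, 3 of the 34 tested members rose and none fell. They were Ccl2, the main ligand of the monocyte receptor CCR2, and the neutrophil-attracting ligands Cxcl5 and Cxcl1. The test was limma on log2(FPKM + 1) with Benjamini-Hochberg adjustment over 14179 genes, at an adjusted p under 0.05, and it called 2.74% of all genes tested in this comparison. Cxcl1 and Cxcl5 are among the 3 members that passed the filter through the DSS libraries alone. Without those 3, 1 of 31 members rose. At an unadjusted p under 0.05, 7 of 34 members were higher, or 4 of 31 without those 3, and 1 was lower, where 13% and 10.5% of all genes were. The median log2 difference was 0.11 over the 31 members and 0.01 over all genes tested.

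Ccl2 lies at chr11:82035571-82037453 on the plus strand. Without DSS its FPKM was 1.21, 0.447 and 1.42 under CD and 0.772, 1.69 and 1.66 under HFD. With DSS it was 5.52, 3.97 and 13.7 under CD and 9.22, 4.11 and 3.96 under HFD. Every library with DSS lay above every library without it. The log2 difference was 1.71 ± 0.28 (SE), with an adjusted p of 0.0137. This call held when each library was left out in turn, with adjusted p from 0.0130 to 0.0418.

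Cxcl5, made by epithelial and stromal cells in response to cytokines, had FPKM of 0.225, 0.922 and 0.0966 in CD and 0, 0.0304 and 0.105 in HFD. With DSS it reached 3.41, 1.23 and 9.03 under CD and 16.9, 3.41 and 3.46 under HFD. All 6 DSS libraries lay above all 6 others, and replicate 1 of HFD+DSS was the highest. The log2 difference was 2.25 ± 0.41, with an adjusted p of 0.0186. On the log2(FPKM + 0.1) scale it was 4.27, and with voom on recovered fragments it was 5.26, since the added 1 shrinks differences between low values. The adjusted p was 0.0595 without replicate 1 of CD, 0.0584 without replicate 2 of HFD and 0.0574 with no filter on low values. Over all libraries Cxcl5 had 41 fragments without DSS and 1105 with DSS.

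Cxcl1, the mouse KC chemokine and a ligand of CXCR2, had FPKM of 0.224, 0.509 and 0.224 in CD and 0.067, 0.121 and 0 in HFD. With DSS it was 1.00, 0.948 and 6.90 under CD and 2.59, 2.55 and 1.15 under HFD. The DSS libraries again lay above all the others, at low levels, with 449 fragments against 35. The log2 difference was 1.38 ± 0.32, with an adjusted p of 0.0445. It was 3.04 with a pseudocount of 0.1 and 3.82 with voom. The call lay near the threshold. Leaving out replicates 1, 2 and 3 of CD in turn gave adjusted p of 0.115, 0.0911 and 0.0582. Leaving out those of HFD gave 0.0754, 0.117 and 0.0753, and those of HFD+DSS 0.0716, 0.0716 and 0.05004, so that each of these 9 ended the call. The call was kept without each CD+DSS library. It was also lost with no filter on low values (0.106), with the posterior Hox level as a covariate (0.0617) and with equal library totals (0.0680).

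Cxcl2, the MIP-2 chemokine and another CXCR2 ligand, was at 0 in 5 of the 6 libraries without DSS and at 0.0923 FPKM in replicate 2 of CD. With DSS it was 0.596, 0.466 and 4.90 FPKM under CD and 2.19, 1.36 and 0.355 under HFD. The groups did not overlap, but the log2 difference of 1.17 ± 0.33 did not pass, with an adjusted p of 0.0781. It passed on the log2(FPKM + 0.1) scale (3.43, adjusted p 0.0263) and with voom (5.71, adjusted p 0.0190). Pooled, the HFD libraries held 0 Cxcl2 fragments and the HFD+DSS libraries 133. With 3 fragments as the limit that a pooled count of 0 allows, this was at least 41.6-fold higher. The bound leaves out the spread between libraries.

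Cxcl3 stayed below FPKM 1 and was not tested. It was at 0 in all 6 libraries without DSS and at 0.185, 0.318 and 0.767 FPKM under CD and 0.431, 0.209 and 0.0599 under HFD with DSS. Pooled over libraries this was 106 fragments against 0, at least 35.5-fold higher with the same limit. This bound too leaves out the spread between libraries. The DSS libraries ran from 4 fragments in replicate 3 of HFD+DSS to 40 in replicate 3 of CD+DSS. Cxcr2, the neutrophil receptor of these ligands, had 53 fragments with DSS and 2 without, and reached at most 0.462 FPKM, in replicate 3 of CD+DSS. Cxcr1 had 1 fragment in all. The members thus not overlapping between the 6 DSS libraries and the 6 others were Ccl2, Cxcl1, Cxcl2 and Cxcl5, 4 of 34 tested, or 1 of 31 without those that passed the filter through DSS alone, where 2.17% of all genes were higher in this way. None was lower, as 1.29% of all genes were.

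**Figure D2:**
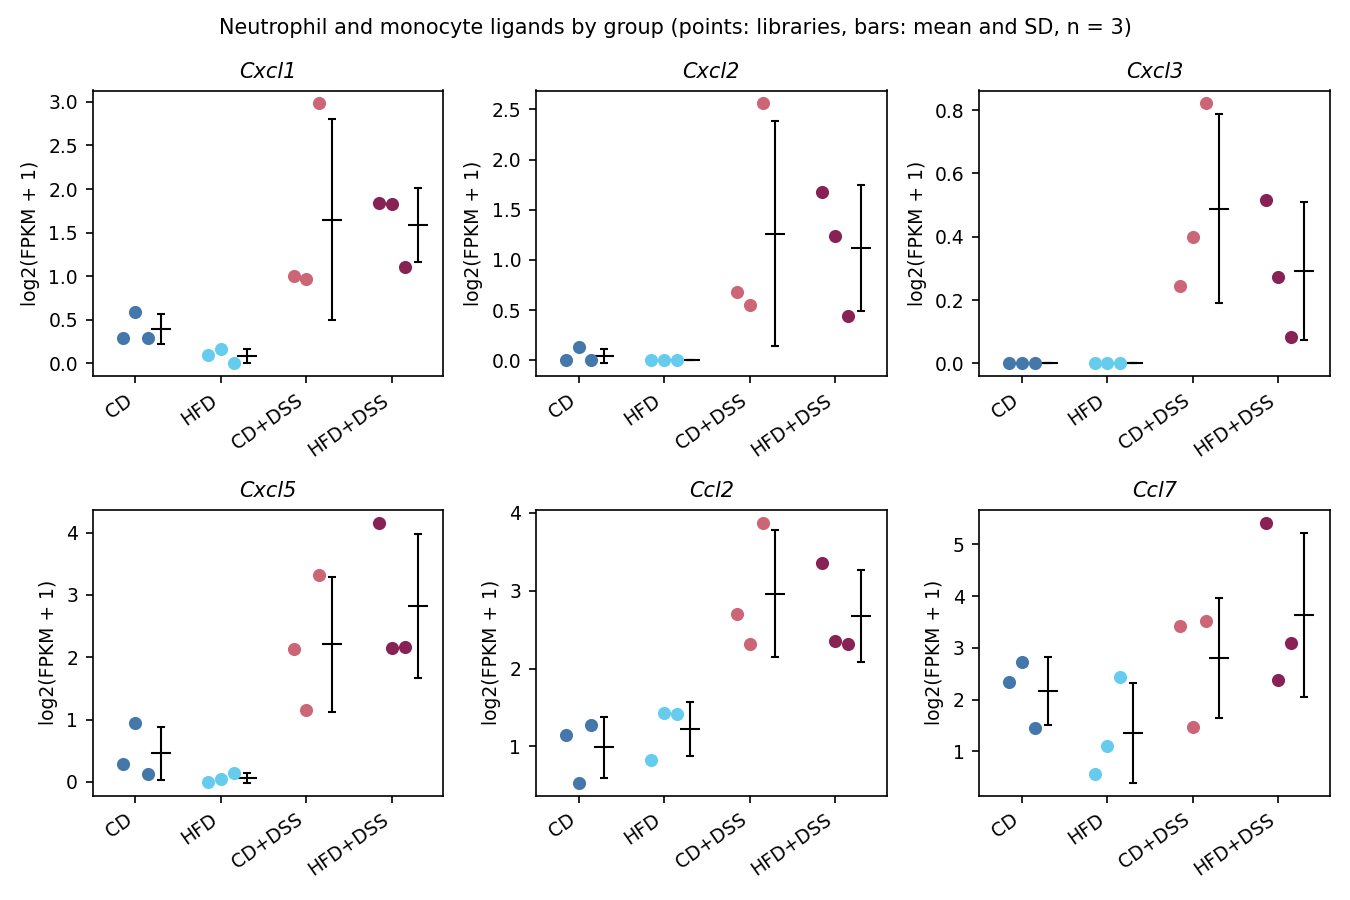
Log2(FPKM + 1) of Cxcl1, Cxcl2, Cxcl3, Cxcl5, Ccl2 and Ccl7 by group, each point a library, with bars for the group mean and SD (n = 3). For Ccl2 the DSS libraries correspond to 3.96 to 13.7 FPKM and the others to 0.447 to 1.69.

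Markers of neutrophils and monocytes were read in the same libraries. S100a9, a calcium-binding protein of neutrophils and monocytes, rose by 2.46 ± 0.40 on the log2 scale (adjusted p 0.0123), from 0 to 0.977 FPKM without DSS to 2.91 to 16.6 with it. It too reached FPKM 1 only in libraries with DSS. It was the called gene among 5 tested of 8 listed neutrophil markers. The summed FPKM of the 8 ran from 43.3 to 257 without DSS and from 113 to 595 with DSS. Ly6g and Cd177 made up most of these sums, and Mpo was at most 0.0459 FPKM. The sums did not follow S100a9. In replicate 2 of CD, Ly6g was at 165 FPKM and Cd177 at 90.8, while S100a9 was at 0 and S100a8 at 0.183. Of the 5 neutrophil markers tested, 4 had a difference above 0 and 1 below. Of 9 monocyte and macrophage markers, Cd14 rose (0.81 ± 0.12, adjusted p 0.00928) and the other 8 did not pass, with a difference above 0 for 4 of the 9 and below 0 for 5. Ly6c2, an antigen of inflammatory monocytes, differed by -0.85 ± 0.25 (adjusted p 0.0838) and Adgre1, the macrophage antigen F4/80, by -0.94 ± 0.31 (adjusted p 0.110). The summed FPKM of the 9 ran from 291 to 457 without DSS and from 229 to 662 with DSS. The part of these cells in the chemokine differences was not tested.

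Ccl7, which also binds CCR2, had 4.04, 5.64 and 1.72 FPKM under CD and 0.470, 1.13 and 4.40 under HFD without DSS, and 9.75, 1.76 and 10.5 under CD and 41.8, 4.22 and 7.59 under HFD with it. Groups overlapped, and the averaged log2 difference was 1.45 ± 0.56 (adjusted p 0.157). Ccl8 and Ccl12 had averaged differences of 0.12 ± 0.47 and 0.28 ± 0.20, neither past the test. Ccr2, the receptor of Ccl2 and Ccl7, was between 0.679 and 3.47 FPKM, with a difference of 0.10 ± 0.23.

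Of the receptors, none passed with DSS. Ccr10, the receptor of Ccl28 on plasma cells that make IgA, had the smallest p among them. Without DSS its FPKM was 2.08, 2.99 and 4.55 under CD and 3.56, 3.12 and 2.08 under HFD, and with DSS 2.35, 0.858 and 1.71 under CD and 0.722, 2.15 and 2.19 under HFD. The groups overlapped, with a log2 difference of -0.63 ± 0.22 and an adjusted p of 0.128. Ccl28 itself differed by 0.02 ± 0.25.

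**Figure D3:**
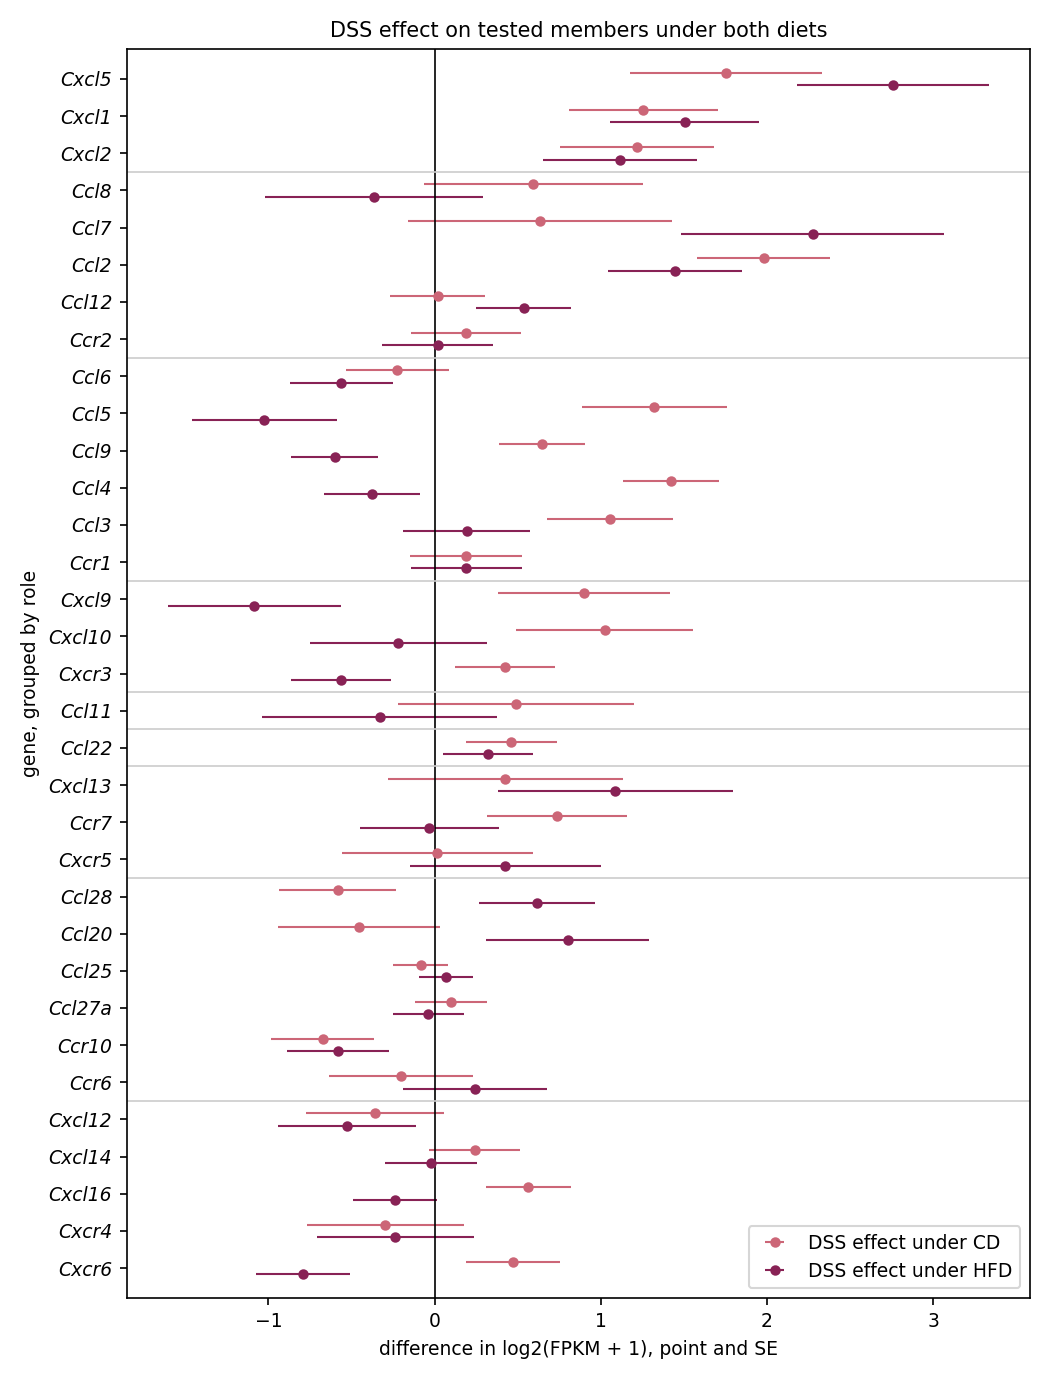
Log2 differences with DSS on the log2(FPKM + 1) scale for tested members under CD and under HFD, points with SE. Ccl2, Cxcl1 and Cxcl5 lie to the right of 0 under both diets.

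Under CD alone, CD+DSS was compared with CD. No member passed in limma, where 0.0846% of all genes did, nor with voom. With no adjustment, 9 of 34 members were higher at p under 0.05, or 6 of 31 without the DSS-only members, and none was lower. Of all genes, 8.67% were higher and 6.49% lower in this way. The smallest p-values belonged to Ccl2 (1.98 ± 0.40, adjusted p 0.0834), Ccl4 (1.42 ± 0.29, adjusted p 0.0835), Cxcl5 (1.75 ± 0.58, adjusted p 0.218), Ccl5 (1.32 ± 0.44, adjusted p 0.218) and Cxcl1 (1.26 ± 0.45, adjusted p 0.241). Without replicate 3 of CD+DSS the Cxcl1 difference was 0.59. The 3 libraries of each group did not overlap for 12 of 34 members, all higher with DSS, or 9 of 31 without the DSS-only members, where 13.7% of all genes were higher and 10.4% lower. They were Ccl2, Ccl3, Ccl4, Ccl5, Ccl9, Ccl22, Cxcl1, Cxcl2, Cxcl5, Cxcl10, Cxcl16 and Cxcr6. Without the DSS-only members the difference was above 0 for 23 of 31, with a median of 0.42 against 0.01 over all genes. Among cell markers, 4 of 8 for T cells and 2 of 7 for epithelium were higher at an unadjusted p under 0.05. So were 1 of 5 tested for neutrophils and 1 of 3 tested for small intestine. Lower were 2 of 9 for monocytes and macrophages and 1 of 3 posterior Hox genes. Of 5 colon markers, 1 was higher and 2 were lower. The other lists named here had none in the opposite direction. The part of these markers was not tested.

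Under HFD, HFD+DSS was compared with HFD. Again no member passed in limma (0.339% of all genes did) or with voom. Unadjusted p-values were under 0.05 for 5 higher members, or 2 of 31 without the DSS-only members, and for 3 lower ones. Of all genes, 7.34% were higher and 6.23% lower in this way. The smallest p-values belonged to Cxcl5 (2.76 ± 0.58, adjusted p 0.0784), Ccl2 (1.45 ± 0.40, adjusted p 0.169), Cxcl1 (1.505 ± 0.45, adjusted p 0.199), Ccl7 (2.28 ± 0.79, adjusted p 0.256) and Cxcr6 (-0.79 ± 0.28, adjusted p 0.267). Ccl7 was 1.38 without replicate 1 of HFD+DSS. Libraries did not overlap for Ccl2, Ccl12, Cxcl1, Cxcl2 and Cxcl5, 5 of 34 or 2 of 31, all higher, where 8.82% of all genes were higher and 7.6% lower. The median over the 31 was -0.04. At an unadjusted p under 0.05, 3 of 5 tested neutrophil markers and 1 of 3 posterior Hox genes were higher. So was 1 of 9 monocyte and macrophage markers. Lower were 2 of 8 T cell markers, 2 of 5 colon markers and 1 of 4 tested adipocyte markers. None of these lists had genes past that threshold in the opposite direction, and their part was not tested. These 2 DSS comparisons use different control libraries.

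HFD was compared with CD without DSS. No gene of the 14179 passed in limma (0% called), and no member passed with voom. Before adjustment, 3 members were higher and none lower at p under 0.05, where 1.77% and 2.38% of all genes were. Ccl5, a chemokine made by T cells and other cells, had 7.93, 8.82 and 20.7 FPKM in CD and 33.0, 33.1 and 22.6 in HFD. The groups did not overlap, and the log2 difference was 1.28 ± 0.44 (adjusted p 0.939). Cxcl9, an interferon-gamma-induced ligand of CXCR3, had 3.14, 5.84 and 9.66 FPKM in CD and 12.6, 22.1 and 16.5 in HFD, again without overlap (1.40 ± 0.52, adjusted p 1). Next came Cxcr6 (0.66 ± 0.28), Ccl4 (0.63 ± 0.29) and Cxcl10, also a CXCR3 ligand (1.15 ± 0.53). Ccl4, Ccl5, Ccl9, Ccl22, Ccl25, Ccl27a, Cxcl9, Cxcl10, Cxcl16 and Cxcr6, 10 of 34, were higher without overlap, where 4.61% of all genes were, and 1, Cxcl1, was lower, where 5.02% were. Markers of other cells and of gut position were also higher in HFD. At an unadjusted p under 0.05, 5 of 8 T cell markers, all 4 tested adipocyte markers of 5 listed and all 3 tested small intestine markers of 6 listed were higher and none of them lower, and none passed after adjustment. The summed FPKM ran from 12.6 to 22.0 in CD and 20.3 to 32.2 in HFD for T cell markers, from 4.34 to 38.8 and 29.2 to 103 for adipocyte markers, and from 10.6 to 19.7 and 26.2 to 62.5 for small intestine markers. The posterior Hox sums were lower in every HFD library than in every CD library. The part of these markers in the chemokine differences was not tested.

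With DSS in both groups, HFD+DSS was compared with CD+DSS. No gene passed in limma (0% called), and no member with voom. Of unadjusted p-values under 0.05, 1 was of a higher member and 4 of lower ones (2.77% and 3.84% of all genes). The 4 lower were Ccl3, Ccl4, Ccl5 and Ccl9. Ccl4, made by activated macrophages and lymphocytes, had 3.74, 2.47 and 5.49 FPKM under CD+DSS against 1.39, 1.79 and 0.397 under HFD+DSS, without overlap. Its log2 difference was -1.17 ± 0.29, with an adjusted p of 0.700. Ccl9 had 12.6, 15.2 and 19.1 FPKM against 8.03, 11.5 and 4.54 (-0.94 ± 0.26, adjusted p 0.700). Ccl3 had 1.92, 1.64 and 4.99 against 1.63, 1.18 and 0.205, a near overlap (-0.92 ± 0.38, adjusted p 0.746), and Ccl5 overlapped (-1.06 ± 0.44, adjusted p 0.740). Ccl25, a ligand of the gut-homing receptor CCR9, was the higher member, at 0.36 ± 0.16 (adjusted p 0.749). Ccl3, Ccl4 and Ccl9 were lower and Ccl20 higher without overlap, against 5.85% and 3.6% of all genes. In this comparison 3 of 8 T cell markers and 2 of 5 colon markers were lower at an unadjusted p under 0.05. So were 1 of 5 tested neutrophil markers and 1 of 7 epithelial markers. Higher were 2 of 3 posterior Hox genes, 2 of 6 smooth muscle markers and 1 of 9 monocyte and macrophage markers. None of these lists had genes past that threshold in the opposite direction, and their part was not tested.

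**Figure D4:**
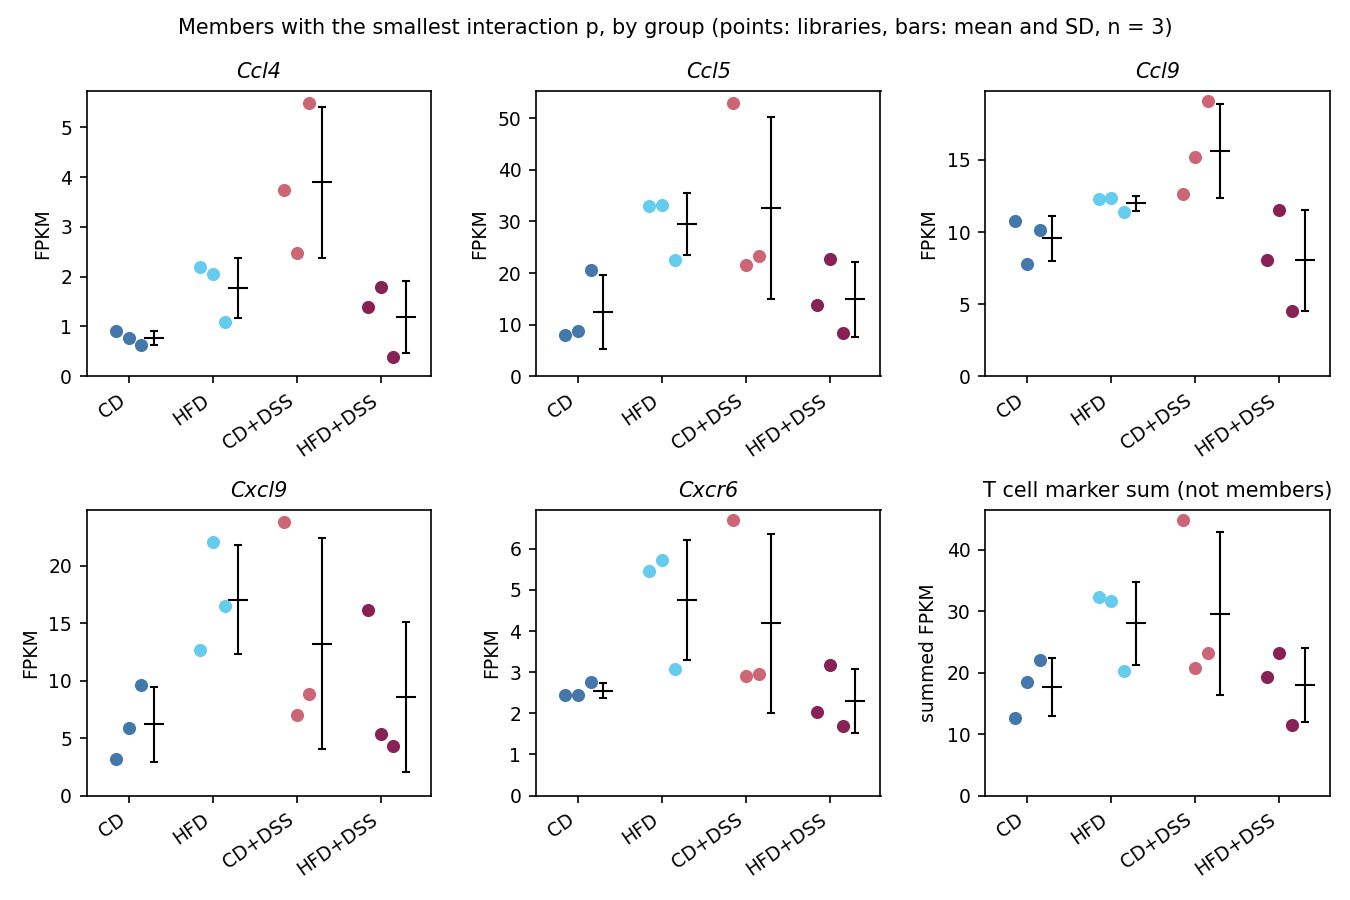
FPKM of Ccl4, Ccl5, Ccl9, Cxcl9 and Cxcr6 and the summed FPKM of the T cell markers by group, each point a library, with bars for the group mean and SD (n = 3). Ccl4 lies at 0.636 to 0.908 in CD, 1.09 to 2.19 in HFD, 2.47 to 5.49 in CD+DSS and 0.397 to 1.79 in HFD+DSS.

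The interaction, the DSS difference under HFD minus that under CD, tests whether the DSS difference depends on diet. No gene passed in limma (0% called) and no member with voom. At an unadjusted p under 0.05, 1 member was higher and 7 were lower (2.69% and 2.73% of all genes). The smallest p-values belonged to Ccl4 (-1.80 ± 0.41, adjusted p 0.560), Ccl5 (-2.35 ± 0.62, adjusted p 0.560), Ccl9 (-1.25 ± 0.37, adjusted p 0.704), Cxcr6 (-1.26 ± 0.40, adjusted p 0.745) and Cxcl9 (-1.98 ± 0.73, adjusted p 0.816). With the posterior Hox level as a covariate the Ccl9 value was -0.55. The summed FPKM of 8 T cell markers ran from 12.6 to 22.0 in CD, 20.3 to 32.2 in HFD, 20.7 to 44.8 in CD+DSS and 11.4 to 23.2 in HFD+DSS, and none of the 8 was at 0. Its part in these values was not tested.

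With the diets averaged over DSS status, no gene passed in limma (0% called) and no member with voom. At an unadjusted p under 0.05 there were 2 members, Ccl25 (0.29 ± 0.12, adjusted p 0.976) and Cxcl14 (-0.45 ± 0.20, adjusted p 0.9998), where 4.67% of all genes were.

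Of the remaining tested members none passed in any comparison, and values are given by role as ranges over the 3 libraries of a group. Among the inflammatory CC ligands, Ccl6 was at 115 to 200.1 (CD), 141 to 183 (HFD), 90.5 to 169.7 (CD+DSS) and 73.4 to 142 FPKM (HFD+DSS). Ccl11, the eosinophil-attracting eotaxin, was at 3.18 to 9.87 FPKM in CD, 3.92 to 10.5 in HFD, 1.99 to 20.6 with CD+DSS and 2.32 to 12.4 with HFD+DSS, while the eosinophil receptor Ccr3 had 6 fragments in all 12 libraries. Ccl22, a ligand of CCR4 from dendritic cells and macrophages, was at 0.671 to 0.825 (CD), 1.08 to 1.66 (HFD), 0.924 to 2.55 (CD+DSS) and 0.991 to 2.96 FPKM (HFD+DSS). The Ccl11 ranges of all 4 groups overlapped. The receptor Ccr1 was at 2.75 to 4.20 FPKM in CD, 2.37 to 3.64 in HFD, 2.07 to 5.66 with CD+DSS and 1.81 to 5.23 with HFD+DSS.

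Of the interferon-inducible axis, Cxcl9 was at 3.14 to 9.66 FPKM in CD, 12.6 to 22.1 in HFD, 7.00 to 23.8 with CD+DSS and 4.27 to 16.1 with HFD+DSS. Cxcl10 was at 2.66 to 3.81 (CD), 5.88 to 12.7 (HFD), 5.43 to 12.5 (CD+DSS) and 2.42 to 19.2 FPKM (HFD+DSS), with its highest value in replicate 1 of HFD+DSS. Their receptor Cxcr3, on activated T cells, was at 0.866 to 2.43 FPKM in CD, 2.07 to 3.55 in HFD, 2.10 to 3.66 with CD+DSS and 0.947 to 2.76 with HFD+DSS. All 3 genes overlapped between CD+DSS and HFD+DSS.

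Among the CXC members with mainly steady-state roles, Cxcl12, the stromal ligand of CXCR4, was at 8.13 to 12.6 (CD), 7.94 to 14.0 (HFD), 3.26 to 11.2 (CD+DSS) and 4.66 to 12.8 FPKM (HFD+DSS). Cxcr4 was at 3.52 to 9.54 FPKM in CD, 4.36 to 5.80 in HFD, 2.58 to 6.79 with CD+DSS and 1.54 to 9.57 with HFD+DSS. Cxcl14, an epithelial and stromal chemokine, was at 8.29 to 17.1 (CD), 7.67 to 8.72 (HFD), 10.2 to 15.4 (CD+DSS) and 6.57 to 11.74 FPKM (HFD+DSS). Cxcl16, the membrane-anchored ligand of CXCR6, was at 5.56 to 7.27 FPKM in CD, 8.27 to 8.71 in HFD, 8.31 to 12.5 with CD+DSS and 4.25 to 10.9 with HFD+DSS. The Cxcl16 ranges of HFD and CD+DSS lay above that of CD, and the HFD+DSS range overlapped all 3. Cxcr6, found on tissue-resident T cells and innate lymphocytes, was at 2.44 to 2.76 (CD), 3.07 to 5.72 (HFD), 2.92 to 6.69 (CD+DSS) and 1.68 to 3.18 FPKM (HFD+DSS).

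For homing to mucosa and lymphoid tissue, Ccl20 was at 0.886 to 4.61 FPKM in CD, 0.758 to 2.89 in HFD, 0.991 to 1.45 with CD+DSS and 1.47 to 7.98 with HFD+DSS. Ccr6 was at 0.362 to 2.55 (CD), 0.406 to 1.07 (HFD), 0.260 to 1.52 (CD+DSS) and 0.361 to 2.80 FPKM (HFD+DSS). Ccl25 was at 0.991 to 1.15 FPKM in CD, 1.21 to 1.68 in HFD, 0.810 to 1.26 with CD+DSS and 1.17 to 1.94 with HFD+DSS, and its receptor Ccr9 reached at most 0.269 FPKM. Ccl27a, a CCR10 ligand best known in skin, was at 0.750 to 1.01 (CD), 1.02 to 1.26 (HFD), 0.959 to 1.18 (CD+DSS) and 0.497 to 1.96 FPKM (HFD+DSS). Ccl28 was at 19.96 to 51.5 FPKM in CD, 13.8 to 27.1 in HFD, 18.2 to 26.6 with CD+DSS and 21.8 to 37.7 with HFD+DSS. These epithelial ligands were thus present in all groups, with Ccl28 far above the others in every library. Ccr7, the receptor that brings dendritic cells and T cells to lymph nodes, was at 0.455 to 1.93 (CD), 1.05 to 1.65 (HFD), 0.787 to 4.90 (CD+DSS) and 0.477 to 2.25 FPKM (HFD+DSS).

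Some members stood out in particular libraries rather than groups. Of 20 ligand and receptor pairs listed, 11 had both genes tested. Cxcl13, the ligand that gathers B cells into follicles, was at 82.4 FPKM in replicate 1 of HFD+DSS and at 4.64 to 21.1 in the other 11 libraries. Its receptor Cxcr5 was at 4.86 FPKM in that library, 3.49 in replicate 2 of CD and at most 1.80 elsewhere. Over 12 libraries the log2 levels of Cxcl13 and Cxcr5 correlated with Pearson r of 0.888 (permutation p 2e-05, adjusted over 11 pairs 0.00022) and Spearman rho of 0.909 (p 0.00012, adjusted 0.00132). Without the 2 libraries farthest from the median of Cxcl13, r was 0.761, and for deviations from group means it was 0.922. The 8 B cell markers summed to 73.1 FPKM in replicate 1 of HFD+DSS, 48.5 in replicate 2 of CD and 7.68 to 29.6 elsewhere. The part of B cell content in this relation was not tested.

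Ccl8 and Ccr2, listed as a pair, correlated with r of 0.836 (permutation p 0.00069, adjusted 0.0038) and rho of 0.776 (permutation p 0.00408, adjusted 0.0224). Without the 2 farthest libraries r was 0.681, and for deviations from group means it was 0.863. Whether mouse Ccl8 acts through Ccr2 was not tested. The 9 monocyte and macrophage markers summed to 662 FPKM in replicate 1 of CD+DSS, where both genes were highest. Their sum was 237 in replicate 2 of CD+DSS, where both were lowest, 229 in replicate 3 of HFD+DSS and 291 to 479 elsewhere. The part of this content in the relation was not tested. Ccl20, which draws CCR6-bearing cells to epithelium over follicles, and Ccr6 had r of 0.736 (permutation p 0.00872, adjusted 0.032) but rho of 0.434 (p 0.16, adjusted 0.287). Without replicate 1 of HFD+DSS and replicate 2 of CD, r was 0.0524, so the relation rests on those libraries. The other 8 of the 11 pairs tested did not pass. Among them r was -0.337 for Ccl28 and Ccr10 and 0.558 for Cxcl16 and Cxcr6. The pairs share libraries and are not independent of each other.

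**Figure D5:**
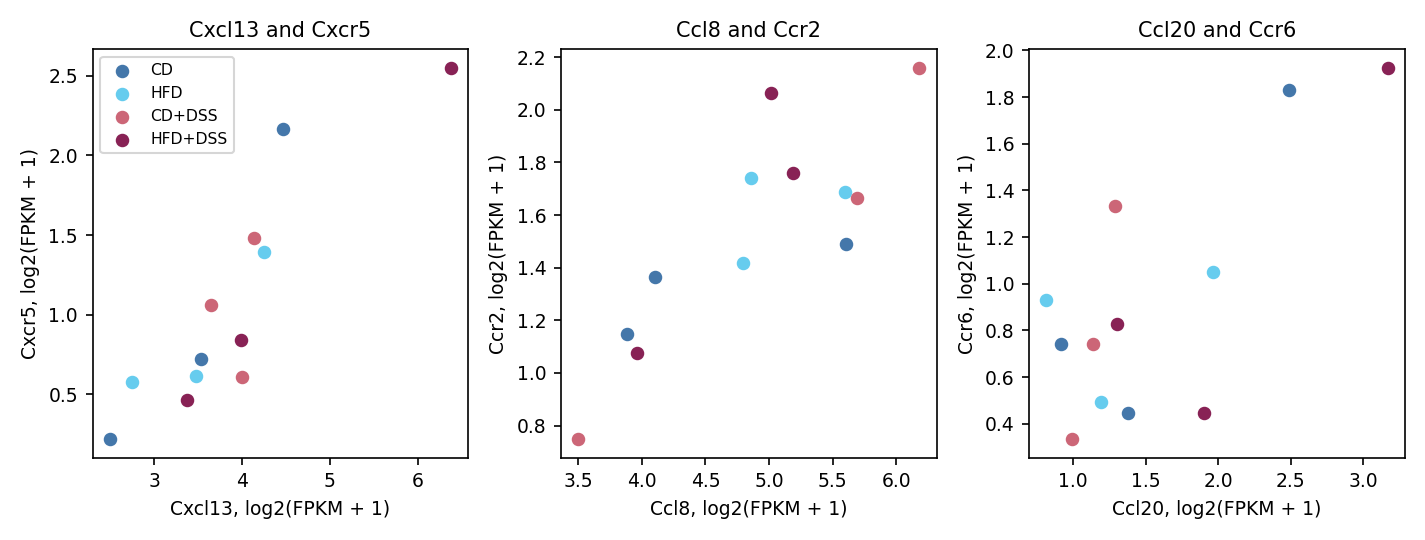
Log2(FPKM + 1) of ligands (x axis) against the receptors listed with them (y axis) for the 3 pairs past the threshold. Each point is a library, coloured by group. For Ccl20 and Ccr6, replicate 1 of HFD+DSS and replicate 2 of CD stand apart at the upper right.

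Other genes of the chemokine system were followed as a fixed list of 12, of which 10 were tested. With DSS averaged over diets, Cx3cl1, the membrane-bound fractalkine, rose, from 16.1 to 21.9 FPKM without DSS to 21.1 to 36.8 with it (0.50 ± 0.11, adjusted p 0.0448), and none fell. Its receptor Cx3cr1 differed by -0.55 ± 0.20 (adjusted p 0.138), and the scavenging receptor Ackr4 by -0.49 ± 0.15 (adjusted p 0.0949). Of 19 genes of chemokine receptor signalling, all tested, none passed. The smallest p-values were those of Gnai2, a G protein subunit coupled to these receptors (0.35 ± 0.09, adjusted p 0.0637), and Plcb3 (0.43 ± 0.12, adjusted p 0.0838).

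Across the 34 tested members the extremes were held by few libraries. Replicate 1 of CD+DSS held the highest value of 10 members, replicate 1 of HFD+DSS of 9 and replicate 3 of CD+DSS of 7. Replicate 3 of HFD+DSS held the lowest value of 9 members and replicate 1 of CD of 8. The same count was not made over all genes, so these extremes cannot be read as particular to the members. The 6 smooth muscle markers summed to 2953 FPKM in replicate 3 of HFD+DSS and to 622 to 1726 in the other libraries. Within HFD+DSS, that replicate also held the lowest values of Ccl3, Ccl4, Ccl5 and Ccl9. The part of smooth muscle content in these values was not tested.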

How the data were processed

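RNA was prepared with an RNeasy kit and libraries by a SMARTER mRNA-Seq protocol, as the labels state. The authors deposited FPKM per gene for 12 libraries, and the build is mm10 per the submitters' processing notes. The sources used here name no aligner, counter or annotation. Symbols were matched for 54409 of 54532 Ensembl IDs. The deposited FPKM steps gave whole fragments, within 0.1, for 97.0 to 97.2% of values, and the recovered fragments were used for counts and for voom only.

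The 14179 genes that reached FPKM 1 in 3 or more of the 12 libraries were tested with limma 3.58.1 (R 4.3.3), with a trend, on log2(FPKM + 1), in 1 fit of all 4 groups. Standard errors come from that fit. Adjusted p-values are Benjamini-Hochberg over all genes tested. The test was tried on simulated data. Ligand and receptor pairs were tested by 2-sided permutation with 100000 resamples. The members, lists and pairs were chosen with earlier results of these data known. Full statistics are given for called members and the 5 smallest p-values of each comparison. Promoters are given for called members or the 5 smallest p-values of the averaged DSS comparison, where an entry existed. Alternatives were another pseudocount (0.1), other filters and scaling, covariates, a replicate block, 2-group fits, leaving out each library and, added after seeing the data, voom. Values of 1 tested member are not reported here.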

Additional observations from a re-analysis of the deposited data

Results flagged for a closer look

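Ccl4 and Ccl9 were higher in every HFD library than in every CD library without DSS, and lower in every HFD+DSS library than in every CD+DSS library. They were picked by looking over the 34 tested members for differences without overlap that changed direction. The share of all genes with this pattern was not counted, so it cannot be read as particular to these members. The interaction value of Ccl4 was -1.80 (adjusted p 0.560), and that of Ccl9 was -1.25 (adjusted p 0.704). Neither passed the limma test of the difference itself. Hoxb13, 1 of the 3 posterior Hox genes, separated the same groups in the opposite direction. It was at 28.8 to 61.3 FPKM in CD and 0 to 19.3 in HFD. With DSS it was at 0.0336 to 22.6 under CD and 27.4 to 62.8 under HFD. Hoxa13 overlapped between the diets with and without DSS. Hoxd13 and the mean log2(FPKM + 1) of the 3 genes overlapped without DSS only. That mean was the posterior Hox covariate, at 3.13 to 5.11 in CD and 1.23 to 3.53 in HFD. With this covariate the interaction values were -1.39 for Ccl4 and -0.55 for Ccl9. The part of gut position in the pattern was not tested.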

How the results depend on the processing

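With DSS averaged over diets, 3 members were called, 4 with a pseudocount of 0.1, 1 with no filter on low values, 4 with voom, and 1 to 3 when a library was left out. Under HFD, DSS called 0 members, 1 (Cxcl5) with a pseudocount of 0.1, and 0 to 1 when a library was left out (Cxcl1 without replicate 3 of CD+DSS). The 3 pairs past the threshold became 5 with equal library totals, and 2 to 4 when a library was left out. Replicate numbers did not pair the samples (correlations of same-numbered deviations from -0.462 to 0.134). With a replicate block, 2 members (Ccl2 and Cxcl5) were called with DSS averaged over diets, and Cxcl1 had an adjusted p of 0.0857. Of 719 alternative values of 35 fold changes named in the text, 699 kept direction and side of the threshold, 4 passed it anew, 16 lost it and 0 reversed. Only 3 of the 35 were called in the main fit, Ccl2, Cxcl5 and Cxcl1 with DSS averaged over diets. Only these could lose a call, so the count of 699 does not measure how stable the calls were. All 16 losses fell on Cxcl5 and Cxcl1, and Ccl2 kept its call in every alternative. The cause of these changes was not tested. No scaling moved the median of all genes by more than 0.1. Depth limits members near 0, such as Cxcl2 and Cxcl3 without DSS.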

Other observations

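Cxcl17 and Cxcl15, both chosen after their values were seen, stood out in replicate 3 of CD. Cxcl17, a mucosal chemokine, was at 1.58 FPKM there and at most 0.172 elsewhere, and Cxcl15, known from lung epithelium, was at 0.423 there and at most 0.0276 elsewhere. The 6 squamous epithelium markers summed to 12.1 FPKM in that library and to 1.28 to 2.26 in the others, with Krt4 at 6.10 and Krt5 at 3.08. The part of squamous tissue in these values was not tested.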
